A study of Mus musculus with 12 samples.

Results

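The Gm11949 locus is a 378 bp stretch of mouse chromosome 11 (chr11:3525591-3525968, mm9, positions counted from 1) that was amplified and sequenced deeply after bisulfite treatment. Its members were chosen by position and coverage alone, as the cytosines of CpG dinucleotides in this stretch with 10 or more read-outs in all 12 samples. There were 40 of them, out of 384 such CpG cytosines in the 14 loci of the study and 2428 cytosines of any sequence context. They were the Watson and the Crick cytosine of 20 CpG dyads, and no CpG of the stretch was lost to the coverage minimum.

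Gm11949 is annotated as a pseudogene on the Crick strand (chr11:3525480-3525851), with a single exon, and carries the name Map1lc3-5 as a synonym in RefSeq. Its sequence was closest to the coding sequences of Gm6055 (94.2% identity over 378 aligned bases) and of Map1lc3b (93.9% over 378 aligned bases), the gene of LC3B, a ubiquitin-like protein that is attached to autophagosome membranes. The targeted stretch covered the start of the pseudogene, with 12 dyads inside the annotated exon and 8 dyads between 3 and 42 bp upstream of it. The alignment to Map1lc3b continued upstream of the annotated start into the 5′ UTR of its transcript, which ends at base 57, so that all 20 dyads had a counterpart in Map1lc3b, and 17 of the 20 counterparts were CpG there too. No cytosine of Map1lc3b or Gm6055 itself was among the covered positions. The nearest ends of the pseudogenes Gm11950 and Gm11951 lay 2859 and 7047 bp away. They were followed by Tug1, a long non-coding RNA gene, with its nearest end at 13829 bp. Beyond it lay Morc2a, the gene of a MORC-family ATPase, whose annotated start was 23529 bp away. On the other side the nearest annotated gene was Smtn, which encodes smoothelin, at 84976 bp.

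Cytosines in CpG are methylated to 5-methylcytosine (5mC) by DNA methyltransferases, and because CpG reads the same on both strands, a maintenance methyltransferase can copy the mark onto the new strand after replication. TET dioxygenases, of which Tet1 and Tet2 are expressed in mouse embryonic stem cells, oxidize 5mC to 5-hydroxymethylcytosine (5hmC) and further, which opens a route back to unmodified cytosine. Retrocopied pseudogenes are DNA copies of processed transcripts that landed elsewhere in the genome, usually without their own promoter.

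The cells were v6.5 mouse embryonic stem cells, a line grown here with serum and LIF. The v6.5 samples are parental and wild-type by their source and genotype labels, although their titles also use the words knock-down, and were taken as wild-type. Tet2kd cells were v6.5 cells electroporated with pSUPER-puro-Tet2shRNA, a plasmid that expresses a short hairpin RNA against Tet2 (the protocol text also names a Tet1 plasmid), selected with puromycin on SNL76/7-4 feeder cells and grown from individually picked clones. The labels do not say how many clones the 3 replicates came from, and the paper names 3 independent cultures of wild-type and Tet2kd cells. Its methods state that the Tet2 knockdown was measured by quantitative PCR and western blot. Tet2 expression was not measured in these libraries. DNA of each of the 3 replicates per genotype was divided, and 1 part was oxidized with KRuO4 before bisulfite treatment. A C read-out in BS-seq stands for 5mC or 5hmC, whereas in oxBS-seq it stands for 5mC plus whatever 5hmC escaped oxidation. Per the study's methods most of the 14 loci were picked for earlier differences between these cell types, so a difference at a chosen locus is not independent of how the loci were selected. The paper calls the replicates biological, and p-values here measure the spread between these samples.

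The CpGs that mark the ends of the range at the locus are shown on the Watson strand, 5′ to 3′, with each CpG in capitals. Window 1 holds the dyad with the largest difference between strands in Tet2kd, window 2 the dyad with the highest 5mC in v6.5 just upstream of the pseudogene start, and window 3 the dyad with the lowest 5mC between its near neighbours.
window 1 (chr11:3525709-3525724, mm9): tccaggaCGggcagct
window 2 (chr11:3525847-3525862, mm9): tgcatggCGCGCGggg
window 3 (chr11:3525880-3525898, mm9): ctgacttCGaCGaCGatca

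The Gm11949 locus was more methylated in Tet2kd than in v6.5 in both assays. The mean C share of the 40 cytosines, with replicates 1, 2 and 3 given in this order throughout, came to 55.6%, 55.5% and 56.5% for v6.5 in BS-seq, versus 73.6%, 71.7% and 75.3% for Tet2kd. By oxBS-seq, v6.5 had 53.8%, 49.5% and 57.9%, versus 72.6%, 72.2% and 71.5% for Tet2kd. Every Tet2kd sample lay above every v6.5 sample of the same assay. The difference of the means was 17.7 percentage points in BS-seq (55.9 ± 0.568 against 73.6 ± 1.80, SD, n = 3 each) and 18.4 points in oxBS-seq (53.7 ± 4.22 against 72.1 ± 0.544). The exact permutation test over the 20 assignments of 3 against 3 samples gave p = 0.1 in each assay, two-sided, which is the smallest value that this design allows and does not pass a threshold of 0.05. Cytosines outside CpG in the same stretch, 152 of them, held between 0.268% and 0.504% C over the 12 samples, which is the background of incomplete conversion, sequencing error and any non-CpG methylation together.

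**Figure D1:**
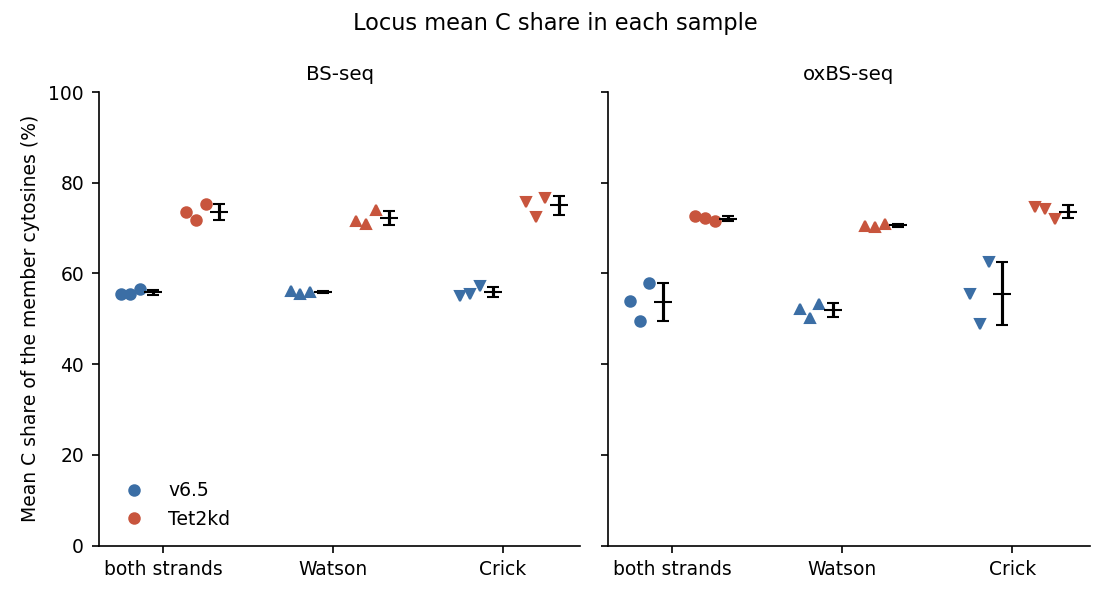
Mean C share of the member cytosines (y axis, percent) in each sample, for BS-seq and oxBS-seq, over both strands and for the 20 Watson and the 20 Crick cytosines; points are replicates and the black bars the mean ± SD of 3. All Tet2kd points lie above all v6.5 points in every column, and the v6.5 oxBS-seq points of the Crick strand spread most, from 48.8% to 62.4%.

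The rise was spread over the whole stretch. All 40 cytosines had a higher mean C share in Tet2kd by BS-seq, by 6.44 to 34.98 percentage points with a median of 16.9, against a median of 5.94 points over all 384 CpG cytosines. In 39 of the 40 the replicates of the genotypes did not overlap, whereas this was so in 57.0% of all CpG cytosines and in 17.5% of all cytosines. The exception, picked out after its values were seen, was 3525743 on the Crick strand, with 66.4%, 72.9% and 78.3% for v6.5 and 84.6%, 76.5% and 84.8% for Tet2kd. The quasi-binomial regression, with a dispersion estimated per cytosine and Benjamini-Hochberg adjustment over all 2428 cytosines, called 34 of the 40 at an adjusted p of 0.05, all 34 higher in Tet2kd, against 5.19% of all cytosines and 32.3% of the CpG cytosines. No call was lower in Tet2kd. The 34 comprised 18 of the 20 Watson and 16 of the 20 Crick cytosines, and in 16 dyads both strands were called. These calls rest on having all 6 samples. With 1 sample left out, 0 members were called without v6.5 replicate 1, without v6.5 replicate 2 or without Tet2kd replicate 1. There was 1 without v6.5 replicate 3, 5 without Tet2kd replicate 3 and 19 without Tet2kd replicate 2. Between 37 and 40 members still had an unadjusted p of 0.05 or less in this regression. The shares over all CpG cytosines with 1 sample left out are not given here, so these counts describe the members only.

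In oxBS-seq all 40 cytosines were also higher in Tet2kd on average, by 3.11 to 32.07 points with a median of 18.4, against 7.61 points over all CpG cytosines. The replicates of the genotypes did not overlap at 33 of the 40, against 50.5% of all CpG cytosines and 14.2% of all cytosines. The quasi-binomial regression called 4 of the 40, all on the Watson strand (3525756, 3525790, 3525858 and 3525887, listed because they are few) and all higher in Tet2kd, against 3.65% of the CpG cytosines and 0.577% of all cytosines. Of these 4, 3525756 was read at 26.4% of the median depth of its strand. Its dispersion was 3.08, against a median of 75.1 over the Watson members, and the part of depth in this call was not tested. With any of the 6 oxBS-seq samples left out the regression called 0, with 22 to 31 members at an unadjusted p of 0.05 or less. The shares over all CpG cytosines are not given for these fits either. Replicates differed more in oxBS-seq than in BS-seq here, with a median dispersion over the members of 31.6 against 5.88, where 1 is counting error alone. After the replicates had been added up, which leaves out the spread between them, Fisher's exact test passed an adjusted p of 0.01 at all 40 cytosines in each assay, against 71.9% of the CpG cytosines and 19.1% of all cytosines by BS-seq, and 78.9% and 32.5% by oxBS-seq.

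**Figure D2:**
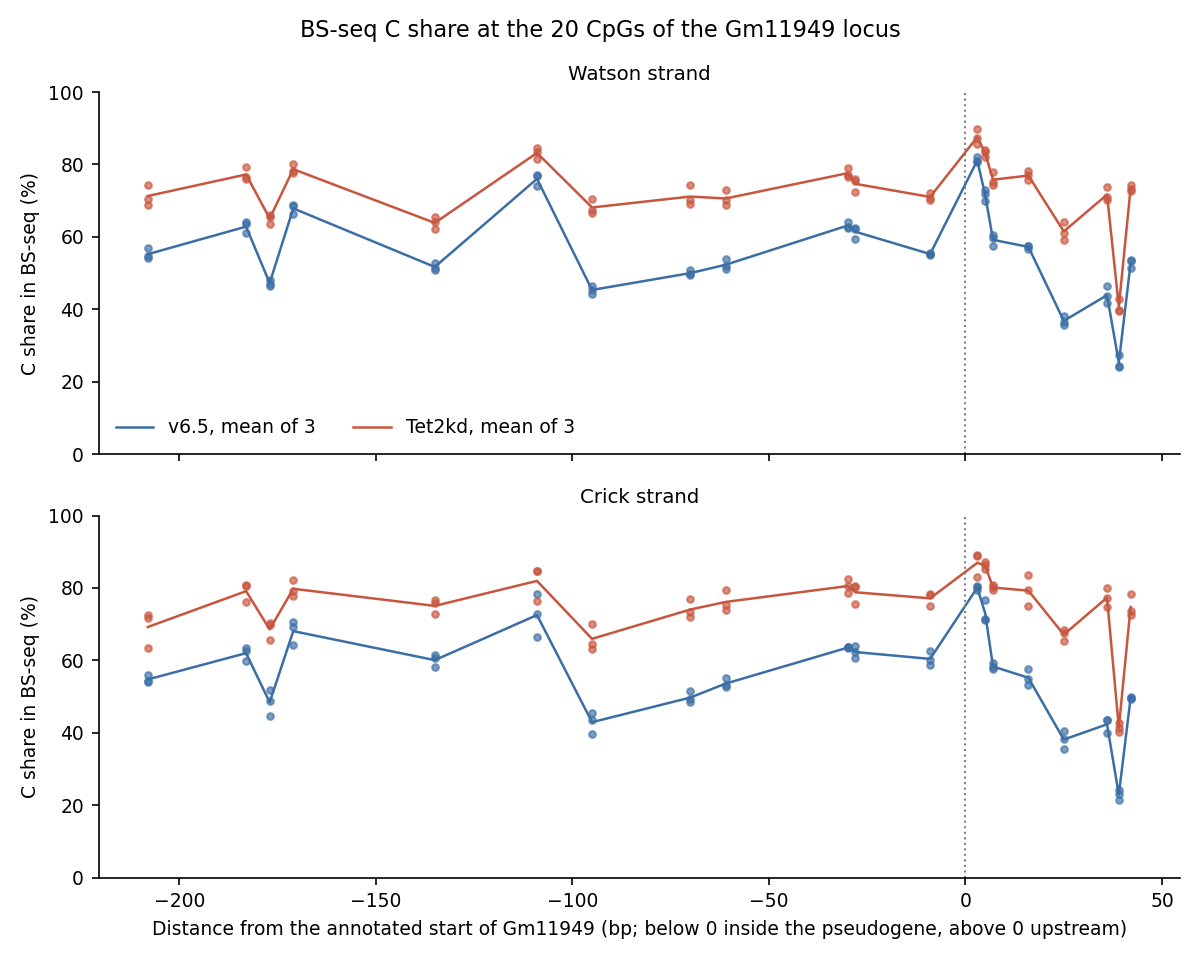
C share in BS-seq (y axis, percent) at each CpG of the locus against its distance from the annotated start of Gm11949 (x axis, bp; values below 0 lie inside the pseudogene and values above 0 upstream of it), for the Watson strand above and the Crick strand below; points are replicates and lines join the means of 3. The Tet2kd line lies above the v6.5 line at all 20 CpGs on both strands, and both lines drop at the CpG 39 bp upstream of the start.

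Lux was used to estimate how much of each cytosine was C, 5mC or 5hmC. It is a hierarchical model that joins the read-outs of both assays with the conversion and oxidation efficiencies of each replicate. Unmodified C made up 0.430, 0.444 and 0.419 of the locus for v6.5, versus 0.251, 0.267 and 0.244 for Tet2kd. Estimates of 5mC were 0.527, 0.432 and 0.552 for v6.5, versus 0.690, 0.689 and 0.672 for Tet2kd. The genotypes did not overlap for either, with every Tet2kd replicate lower in C and higher in 5mC. Mean 5mC was 0.504 ± 0.0637 for v6.5, versus 0.684 ± 0.0104 for Tet2kd (SD, n = 3 each), a difference of 0.180, and that of C changed by -0.177 (exact permutation p = 0.1 for each, the smallest possible). Locus values are means of the replicate estimates, whereas the proportion of a single cytosine is the level common to its replicates. The latter can differ from the mean of the replicates. This level of 5mC was higher by more than 0.1 in Tet2kd at 37 of the 40 cytosines, against 43.2% of all CpG cytosines and 6.84% of all cytosines. At 31 of the 40 the replicates did not overlap in 5mC, against 48.4% of all CpG cytosines and 15.0% of all cytosines.

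The 5hmC proportion of the locus was low and did not separate the genotypes. For v6.5 the estimates were 0.0425, 0.125 and 0.0291, versus 0.0588, 0.0440 and 0.0842 for Tet2kd. The means were 0.0655 ± 0.0518 and 0.0624 ± 0.0203 and the difference was -0.0031 (exact permutation p = 1.0). v6.5 replicate 2 stood above the other v6.5 replicates, and without it the difference turned to 0.0265, higher in Tet2kd (exact permutation p = 0.2, where 0.1 is the smallest possible). Without Tet2kd replicate 2 it was 0.0075. The replicate with the highest 5hmC in each genotype was also the one with the lowest oxidation efficiency estimated from the spiked-in controls, 0.472 for v6.5 replicate 2 and 0.486 for Tet2kd replicate 3, against 0.545 to 0.777 in the other replicates, and the part of this in the 5hmC values was not tested. These efficiencies differ from the paper's, which were higher in Tet2kd than in v6.5 and reached higher values. Here v6.5 had 0.777, 0.472 and 0.743, versus 0.625, 0.545 and 0.486 for Tet2kd. Among the members 17 had a higher and 23 a lower 5hmC level common to the replicates in Tet2kd, with a median difference of -0.0029. The median difference over all CpG cytosines was -0.0012. The median of this level over the members was 0.0284 for v6.5, versus 0.0333 for Tet2kd, below the locus means. The 95% posterior interval of the 5hmC difference included 0 at all 40 members, and the share over all CpG cytosines is not given here.

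**Figure D3:**
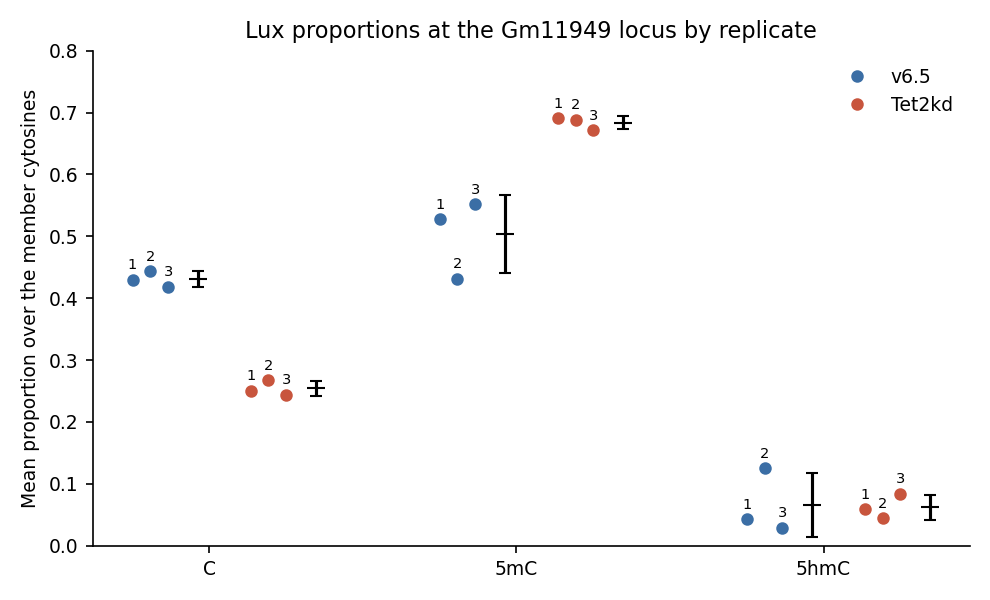
Mean Lux proportion of C, 5mC and 5hmC over the 40 cytosines (y axis) in each replicate of v6.5 and Tet2kd; numbers above the points are the replicate numbers and the black bars the mean ± SD of 3. The genotypes do not overlap for C and 5mC and overlap for 5hmC, where v6.5 replicate 2 reaches 0.125.

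The raw signal of 5hmC, the C share in BS-seq minus that in oxBS-seq, averaged 1.80 percentage points over the 6 replicates. For v6.5 the values were 1.74, 6.04 and -1.38 points, versus 1.05, -0.488 and 3.83 points for Tet2kd, so that 4 of the 6 were above 0 (exact sign-flip permutation test over the 6 replicates, p = 0.219, two-sided). On the Watson strand it was above 0 in all 6, from 0.682 to 5.39 points with a mean of 2.74 (p = 0.03125 in the exact sign-flip permutation test, which cannot give less). On the Crick strand it ran from -5.24 to 6.68 points with a mean of 0.860 (p = 0.688 in the same exact test). The split by strand was added to the planned test over both strands, and its p-values were not adjusted for the number of tests. The strands were also read at unequal depth, with a median of 3343 to 27711 read-outs per Watson cytosine and 489 to 3129 per Crick cytosine over the 12 samples, and the part of depth in this contrast was not tested.

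The Bayes factor, which weighs a change of the 3 proportions between genotypes against none, was above 1 at 1 member, against 1.07% of all cytosines and 6.51% of the CpG cytosines. At no member was it above 3, against 1.30% of the CpG cytosines and 0.206% of all cytosines. The member was the Crick cytosine of the dyad 36 bp upstream of the pseudogene start (position 3525888, the first CpG of window 3), with a Bayes factor of 1.71, rank 12 of the 384. BS-seq gave C shares of 43.6%, 40.0% and 43.5% for v6.5, versus 80.0%, 74.8% and 77.2% for Tet2kd. By oxBS-seq they were 45.3%, 32.5% and 55.7% for v6.5, versus 75.1%, 66.5% and 71.0% for Tet2kd. The genotypes were thus apart in both assays, by 34.98 points in BS-seq, the largest difference among the members (adjusted p = 0.00915, quasi-binomial regression), and by 26.4 points in oxBS-seq (adjusted p = 0.187). Without v6.5 replicate 2 no member had a Bayes factor above 1, and without v6.5 replicate 3 or without Tet2kd replicate 3 there were 2.

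The 5 largest 5mC differences among the members whose replicates did not overlap are given as a description, since they were picked for these values. The largest was at the Watson cytosine of the same dyad (position 3525887), where the 5mC level common to the replicates was 0.383 for v6.5, versus 0.730 for Tet2kd, with a 95% posterior interval of the difference from 0.0356 to 0.710. It read 46.4%, 41.8% and 43.6% C by BS-seq for v6.5, versus 70.1%, 71.1% and 73.8% for Tet2kd. This cytosine was also among the 4 called in oxBS-seq (adjusted p = 0.0438, quasi-binomial regression).

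The others were 3525877 on the Crick strand, 25 bp upstream of the start, with 5mC of 0.336 for v6.5, versus 0.653 for Tet2kd, the Crick cytosine 3525888 described above (0.401 and 0.706), 3525757 on the Crick strand 95 bp inside the pseudogene (0.377 and 0.663) and 3525867 on the Watson strand 16 bp upstream (0.464 and 0.750). All of the 5 except 3525757 lie upstream of the annotated start. The posterior intervals of single cytosines were wide, and the 5mC interval lay above 0 at 2 of the 40, 3525887 and 3525756 on the Watson strand. The share over all CpG cytosines is not given here, so this count describes the members only.

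The level of methylation differed widely from CpG to CpG and kept its pattern between genotypes. By BS-seq the mean C share ran from 22.9% to 81.1% for v6.5, versus 40.8% to 87.6% for Tet2kd. Across the 40 cytosines the levels of the genotypes were correlated with a Pearson coefficient of 0.890 (Spearman 0.871), given as a description, since the cytosines share amplicons and libraries. The SD of 5mC between the 40 cytosines was 0.127, 0.152 and 0.130 for v6.5, versus 0.125, 0.105 and 0.113 for Tet2kd. The CpGs were thus closer to each other in 5mC in each Tet2kd replicate than in any v6.5 replicate, with a mean change of the SD of -0.0221 (exact permutation p = 0.1, the smallest possible).

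The highest 5mC proportion lay at the dyad 3 bp upstream of the pseudogene start, the first CpG of window 2. Its Crick cytosine (3525855) was the highest of v6.5 with 0.808, and its Watson cytosine (3525854) the highest of Tet2kd with 0.887. BS-seq gave the Watson cytosine 81.9%, 80.6% and 80.8% C for v6.5, versus 87.2%, 85.6% and 89.8% for Tet2kd, which was the smallest difference among the members with 6.44 points (adjusted p = 0.203, quasi-binomial regression). The Crick cytosine had 80.4%, 79.5% and 80.4% for v6.5, versus 89.0%, 83.1% and 88.7% for Tet2kd (adjusted p = 0.275, quasi-binomial regression). At both cytosines the genotypes did not overlap by BS-seq, and neither passed the test.

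The lowest 5mC proportion lay at the dyad 39 bp upstream of the start, the middle CpG of window 3, only 3 bp from a CpG on either side. It was 0.149 at the Crick cytosine (3525891), the lowest of v6.5, and 0.348 at the Watson cytosine (3525890), the lowest of Tet2kd. Averaged over its strands, the dyad read 24.5%, 23.6% and 24.3% C by BS-seq for v6.5, versus 41.2%, 40.0% and 42.2% for Tet2kd. The dyads 3 bp to its left and right read 43.1% ± 2.07 and 51.2% ± 0.51 for v6.5, versus 74.5% ± 1.34 and 74.1% ± 1.94 for Tet2kd (SD, n = 3). The middle dyad was below the mean of its neighbours in all 12 samples, by 18.1 to 33.67 points. This gap averaged 23.0 ± 0.51 points for v6.5, versus 33.2 ± 0.43 points for Tet2kd, by BS-seq, and by oxBS-seq 21.4 ± 3.10 and 28.1 ± 4.86 points. These dyads were singled out for their levels, so the values carry no test.

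The gain tended to be larger at CpGs that were less methylated in v6.5, with the least methylated dyad as an exception. To keep the level and the difference on separate reads, the v6.5 C share of 1 strand was set against the difference on the other strand of the same dyad. Over the 20 dyads the Pearson coefficient between the v6.5 level on Watson and the difference on Crick was -0.691 (Spearman -0.731), and between the v6.5 level on Crick and the difference on Watson -0.747 (Spearman -0.848). Both are descriptions over dyads of the same DNA samples. The strands had similar v6.5 levels, so separate reads remove shared counting error only, and the v6.5 level still enters the difference. The dyad 39 bp upstream, the lowest in v6.5 with 24.1% C over its strands, gained 16.98 points, less than its left neighbour, which gained 31.36 points from 43.1%. Taken as a share of what was not yet C in v6.5, the dyads gained between 22.4% and 55.2% with a median of 41.5%. The lowest and the highest of these shares were those of the middle dyad of window 3 and of its left neighbour, at 39 and 36 bp upstream.

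The levels of the strands of a dyad went together. Over the 20 dyads the Pearson coefficient between the BS-seq C shares of Watson and Crick was 0.978 for v6.5, 0.946 for Tet2kd and 0.968 for the difference between them. Watson minus Crick in 5mC averaged -0.0248 over the 6 replicates, from -0.0568 to 0.0119 (p = 0.125, exact sign-flip permutation test). Watson minus Crick in the BS-seq C share was 0.946, 0.147 and -1.37 points for v6.5, versus -4.09, -1.59 and -2.77 points for Tet2kd, with a mean of -1.45 points (p = 0.125, exact sign-flip permutation test). All 3 Tet2kd replicates were thus below all 3 v6.5 replicates by BS-seq. The strands were further apart by oxBS-seq, where the same difference was -3.34, 1.44 and -9.08 points for v6.5, versus -4.06, -3.94 and -1.001 points for Tet2kd, with a mean of -3.33 points (p = 0.0938, exact sign-flip permutation test). There the genotypes overlapped, and v6.5 replicate 3 had the largest difference. By BS-seq the rise in Tet2kd was 16.3 points on the Watson strand (55.8 ± 0.234 to 72.2 ± 1.59) and 19.1 points on the Crick strand (55.9 ± 1.13 to 75.0 ± 2.18), and it was the larger on Crick at 19 of the 20 dyads. The strand difference changed by -2.73 points between genotypes in BS-seq (exact permutation p = 0.1, the smallest possible) and by 0.666 points in oxBS-seq (exact permutation p = 1.0).

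**Figure D4:**
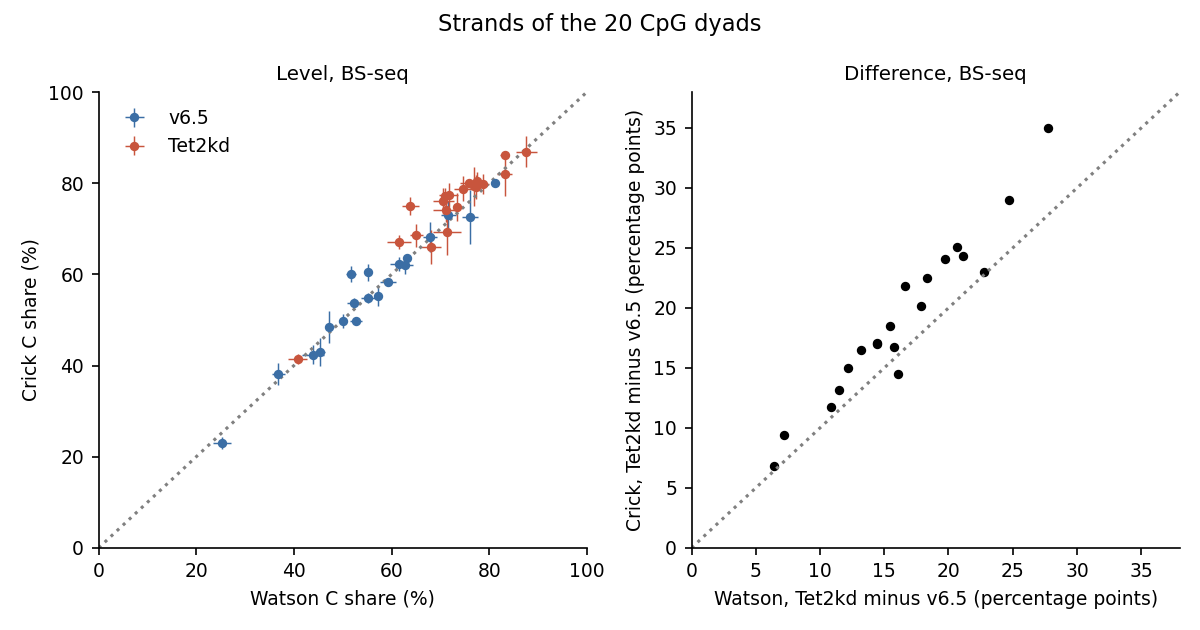
Watson against Crick at the 20 dyads in BS-seq, as the C share in percent with the SD of 3 replicates (left) and as the difference between Tet2kd and v6.5 in percentage points (right); dotted lines mark equality. Levels lie along the line in both genotypes, and 19 of the 20 differences lie above it, larger on Crick.

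The dyads with the largest difference between strands in 5mC were named for that difference. In v6.5 it was the dyad 16 bp upstream, where the Watson cytosine (3525867) had 0.464 and the Crick cytosine (3525868) 0.577. By BS-seq this dyad went the other way in v6.5, with 57.25% on Watson and 55.23% on Crick. By oxBS-seq it read 49.99% and 60.78%. In Tet2kd the largest difference was at the dyad of window 1, 135 bp inside the pseudogene, where Watson (3525716) had 0.641 and Crick (3525717) 0.758. By BS-seq the latter dyad read 51.7% on Watson and 60.1% on Crick for v6.5, versus 63.9% and 75.1% for Tet2kd, so the strands differed in the same direction in both genotypes.

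The cytosines with the highest 5hmC proportions in v6.5 were 3525867 on the Watson strand (0.0913), 3525644 on the Crick strand (0.0881) and 3525680 on the Watson strand (0.0825), the latter pair 208 and 171 bp inside the pseudogene. Tet2kd had 0.0402, 0.0445 and 0.0436 there. Their posterior SDs in v6.5 were 0.0709, 0.0906 and 0.0789, about the size of the proportions, and at each the highest replicate was v6.5 replicate 2, with 0.216, 0.396 and 0.314. Over the 20 dyads the Pearson coefficient between the v6.5 5hmC proportions of Watson and Crick was 0.0129, in contrast to that of their C shares.

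The rise was found on both sides of the annotated pseudogene start. Inside Gm11949 the mean BS-seq C share of 24 cytosines was 57.0%, 57.5% and 58.9% for v6.5, versus 74.1%, 72.2% and 76.1% for Tet2kd. Upstream of it that of 16 cytosines was 53.5%, 52.6% and 52.9% for v6.5, versus 72.9%, 71.0% and 74.3% for Tet2kd. The differences were 16.3 and 19.8 points, with no overlap between genotypes in either (exact permutation p = 0.1 for each, the smallest possible). The 5mC proportion inside minus that upstream changed by -0.0120 between genotypes, with overlapping replicates (exact permutation p = 0.6). The 6 cytosines of the 3 dyads that are not CpG in Map1lc3b had a mean BS-seq C share of 51.8% for v6.5, versus 71.0% for Tet2kd, and the other 34 had 56.6% and 74.0%. The range of the difference was 14.46 to 23.01 points in the former and 6.44 to 34.98 points in the latter, so the dyads that are not CpG in Map1lc3b lay within the range of the others.

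Compared with the other 13 loci, the Gm11949 locus ranked 8 of 14 in mean 5mC in v6.5, 10 in 5hmC in v6.5 and 3 in the gain of 5mC. The other 344 CpG cytosines rose from a mean 5mC of 0.482 ± 0.0193 to 0.562 ± 0.00530, by 0.0796. The locus minus these cytosines gave 0.0304, -0.0287 and 0.0633 for v6.5, versus 0.133, 0.121 and 0.112 for Tet2kd, a change of 0.100 in the distance (exact permutation p = 0.1, the smallest possible). All Tet2kd replicates lay above all v6.5 replicates in this measure. For 5hmC the distance changed by -0.0014 (exact permutation p = 0.9).

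The loci closest to Gm11949 in v6.5 5mC were the one 562 bp from Pvt1 with 0.481, the one in Hsp90ab1 with 0.476 and the intergenic one 51211 bp from AC122043.1 with 0.540. Tet2kd had 0.720, 0.621 and 0.633 there, against 0.684 at Gm11949. The gain at Gm11949 was smaller than near Pvt1 by 0.0583 with no overlap of the replicates, larger than in Hsp90ab1 by 0.0355 and larger than at the intergenic locus by 0.0872 (exact permutation p = 0.1, 0.3 and 0.2, and 0.1 is the smallest possible). Pvt1's locus also had 5hmC of 0.159 ± 0.0833 for v6.5, versus 0.0725 ± 0.0242 for Tet2kd, while Gm11949 had 0.0655 and 0.0624.

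**Figure D5:**
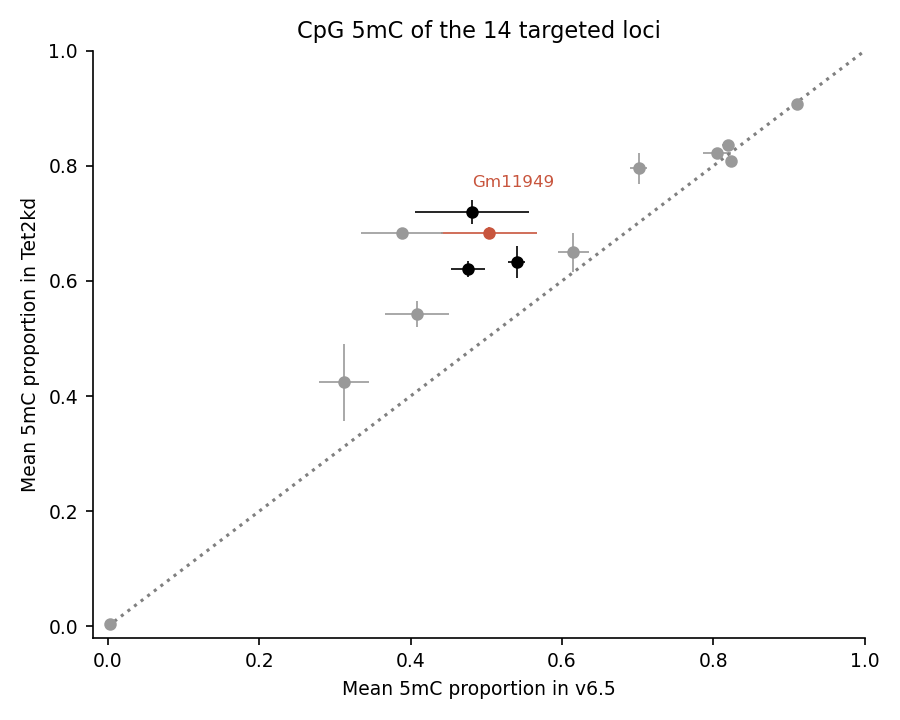
Mean 5mC proportion over the CpG cytosines of each of the 14 targeted loci in v6.5 (x axis) and Tet2kd (y axis), with the SD of 3 replicates; the dotted line marks equality. Gm11949 is in red, the 3 loci closest to it in v6.5 are in black and the others in grey. Gm11949 lies above the line by 0.180.

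The depth of the locus was high. A member had between 138 and 27841 read-outs in a sample. At 3 members, 3525756 on Watson and 3525743 and 3525757 on Crick, it was under 50% of the median depth of their strand, and without them the 5mC difference of the locus was 0.178.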

How the data were processed

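Reads had been aligned by the authors to mm9 with Bismark 0.7.12 and Bowtie2, and the authors deposited, per cytosine and sample, unnormalized counts of C and T read-outs and the percent of C, which was used only as a check. Positions were raised by 1, and strand and context were read from the mm9 sequence. The members and lists were chosen with earlier results of these data known. Cytosines with at least 10 read-outs in all 12 samples entered the fits. Read-outs per sample over these cytosines ranged from 4492080 to 17853042. For a C share of 50%, the 95% Wilson interval was 48.3% to 51.7% at the median member coverage of 3249 and 41.8% to 58.2% at the lowest, 138, and covers counting error only, since reads are PCR copies.

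Conversion and oxidation parameters were estimated from the spiked-in lambda controls and held fixed, and C, 5mC and 5hmC were sampled per cytosine by a Markov chain Monte Carlo version of Lux written for this purpose (Dirichlet prior of 0.8, 1000 draws, Savage-Dickey Bayes factor). Locus means were compared by exact permutation tests, single cytosines by quasi-binomial regression (F test, dispersion not under 1) and Fisher's exact test, adjusted over 2428 cytosines (Python 3.11.15, numpy 2.4.6, scipy 1.17.1). The code was tested on simulated data. Cytosines are named where the Bayes factor exceeded 1, for the 5 largest 5mC differences without overlap, the extremes of 5mC, the 3 highest 5hmC in v6.5 and the largest strand differences, also any member moving against the locus mean, of which there was none; windows, splits by pseudogene start and by Map1lc3b and the neighbours of the lowest dyad were chosen after the values were seen. Sequences and genes come from mm9 and its GENCODE annotation, the transcript match from BLAST+ 2.17.0. Replicate numbers were used to join the BS-seq and oxBS-seq samples of a genotype as parts of the same DNA. They were not taken to link samples of different genotypes. No pair of replicates of the same genotype and assay agreed within sampling noise.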

Additional observations from a re-analysis of the deposited data

How the results depend on the processing

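The gain of 5mC, the loss of C and the rise of the C share in both assays kept their direction under all alternatives tried, between 0.144 and 0.207 for 5mC with 1 replicate left out, but p could not fall below 0.1. The 5hmC difference of the locus (-0.0031) became 0.0091 on the Crick strand alone and ranged from -0.0252 to 0.0265 with 1 replicate left out. The 5hmC change against the other loci (-0.0014) became 0.0022 with ideal parameters and 0.0062 with the frequency method, and ranged from -0.0205 to 0.0200 with 1 replicate left out. The count of members with a Bayes factor above 1 (1) was 0 at a threshold of 3 and ranged from 0 to 2 with 1 replicate left out. The 34 quasi-binomial calls in BS-seq became 12 at a threshold of 0.01 and ranged from 0 to 19 with 1 replicate left out. The 4 in oxBS-seq became 25 when adjusted over CpG cytosines only and 0 at a threshold of 0.01, and were 0 with any replicate left out. With the replicate number as a block, 0 members were called in BS-seq and 0 in oxBS-seq, with 37 and 19 at an unadjusted p of 0.05 or less, and the locus tests could not go below 0.25. These counts with a block or with 1 replicate left out are given for the members only, without shares over all CpG cytosines. Same-numbered samples of the genotypes shared no clear deviations (correlations over 384 CpG cytosines of 0.179, 0.077 and 0.115 in BS-seq and 0.093, -0.087 and -0.175 in oxBS-seq), so the numbers were not taken as pairs. In the other 151 recomputed values the direction and the side of the threshold were kept, or the count stayed within 1.5 times. For the exact permutation tests between genotypes the side of 0.05 could not change, since p could not fall below 0.1, so only the direction is informative there.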
